A study of Mus musculus with 36 samples.

Results

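The leukocyte and macrophage miRNAs examined here are 8 mature miRNAs known chiefly from blood-derived cells, mmu-miR-142a-5p, mmu-miR-142a-3p, mmu-miR-223-3p, mmu-miR-150-5p, mmu-miR-155-5p, mmu-miR-146a-5p, mmu-miR-146b-5p and mmu-miR-511-3p (the prefix is left out from here on). They were taken by name from a count table of 1915 mature miRNAs in mouse kidney, and each had a single row there. All 8 passed the filter on low counts. The table came from small RNA sequencing of whole kidneys from C57BL/6 mice of a Pkd1 line and a Pkd2 line taken 1, 3 or 7 days after birth (P1, P3, P7). Line, age and genotype make 12 groups of 3 libraries (n = 3), 36 libraries in all. In each line the control group, called WT, was floxed without Cre (Pkd1f/f or Pkd2f/f), and the group called KO also carried the HoxB7-Cre transgene (Pkd1f/f:HoxB7-Cre or Pkd2f/f:HoxB7-Cre). WT and KO therefore shared the floxed alleles and differed in Cre, and no group with Cre but without floxed alleles was among the samples. HoxB7-Cre acts in the collecting duct, and mice that lose Pkd1 or Pkd2 there are models of autosomal dominant polycystic kidney disease, with cysts of the collecting duct. The messenger RNAs of Pkd1 and Pkd2 were not analysed here, and the genotypes stand as labelled.

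A mature miRNA guides a silencing complex to messenger RNAs that pair with its seed, the short stretch near its 5′ end. The kidney holds resident macrophages from before birth, and neutrophils, monocytes and lymphocytes reach it through the blood. miR-142 is made in nearly all cells of the haematopoietic lineage, and both arms of its hairpin are used. miR-223 is characteristic of granulocytes and other myeloid cells, and miR-150 of mature lymphocytes. miR-155 is induced on activation of macrophages and lymphocytes. miR-146a and miR-146b are induced downstream of NF-kB and repress the adaptors of Toll-like receptor signalling, and cells other than leukocytes make them too. miR-511 lies in a gene for the macrophage mannose receptor, Mrc1, which marks tissue macrophages. In whole-kidney RNA, a lower number of cells of a type and less of a miRNA in each such cell cannot be told apart.

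The mature sequences are given because they show which members could share targets or reads. Mature sequences in RefSeq (GRCm38.p6) were matched for 7 of the 8 members. Each is written 5′ to 3′, with the seed, bases 2 to 8, in capitals.
miR-142a-5p: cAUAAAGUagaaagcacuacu
miR-142a-3p: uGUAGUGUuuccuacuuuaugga
miR-223-3p: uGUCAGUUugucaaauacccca
miR-155-5p: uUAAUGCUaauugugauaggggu
miR-146a-5p: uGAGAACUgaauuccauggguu
miR-146b-5p: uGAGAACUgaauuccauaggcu
miR-511-3p: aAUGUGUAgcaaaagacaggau

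The 7 sequences held 6 distinct seeds, and the shared seed, GAGAACU, is that of miR-146a-5p and miR-146b-5p. These 2 miRNAs are identical at 20 of 22 bases and differ by G18A and U21C, with positions counted from the 5′ end and the base of miR-146a-5p first. Both differences lie near the 3′ end, so short or trimmed reads of one can be counted for the other, and their separate counts are uncertain to that extent. The 2 arms of miR-142a have different seeds. The hairpin of miR-142a lies at chr11:87756864-87756927 on the plus strand (GRCm38), in an intron of the noncoding gene Mir142hg. The hairpin of miR-142b, read from the opposite strand of the same place, had 2 reads in all 36 libraries together. The hairpin of miR-511 lies at chr2:14261003-14261081 on the plus strand, in an intron of Mrc1. That of miR-155 is at chr16:84714140-84714204 (plus strand), in an exon of the noncoding gene Mir155hg, and that of miR-223 at chrX:96242817-96242926 (plus strand), in an exon of F630028O10Rik. miR-146b is at chr19:46342762-46342870 on the plus strand, in an intron of Mfsd13a, whereas the hairpins of miR-146a at chr11:43374397-43374461 on the minus strand and of miR-150 at chr7:45121757-45121821 on the plus strand overlapped no other annotated gene. The 2 miR-146 hairpins are thus on different chromosomes.

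Libraries held 12569939 to 32663566 reads, with a median of 24008082. miR-10a-5p and miR-10b-5p alone took 31.4% to 81.0% of the reads of a library (median 57.4%), and they took unequal shares in libraries of the same group. The 8 members together held 0.0252% to 0.151% of the reads (median 0.0854%). Levels are given as normalised counts per 1000000 reads (CPM), scaled with TMM factors over all 36 libraries, on which 3 reads, the floor used here, stood for 0.0593 to 0.471 CPM depending on the library. The source of the libraries within a group (separate animals, litters or pools) is not given in the labels, so the p-values measure the spread between these libraries, which may be partly technical.

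All 8 members were read in 36 of 36 libraries, at levels that differed widely between them. miR-146b-5p was the most abundant, with a mean of 334 CPM over the 36 libraries, which is rank 97 among all miRNAs of the table. miR-142a-5p followed with a mean of 193 CPM and miR-146a-5p with 147 CPM, then miR-142a-3p with 46.0 CPM, miR-150-5p with 33.6 CPM, miR-155-5p with 28.3 CPM and miR-223-3p with 22.8 CPM. miR-511-3p was the rarest, with a mean of 3.35 CPM, rank 429, from 13 to 232 reads per library. Mature miRNAs are close to equal in length, but ligation and amplification favour some sequences, so the order between miRNAs is that of reads and need not be that of molecules. The neighbours in the middle of the order were not separated: miR-150-5p exceeded miR-155-5p in 19 of 36 libraries, and their levels did not overlap in 1 of 12 groups. miR-155-5p and miR-223-3p did not overlap in 3 of 12 groups. miR-146b-5p and miR-142a-5p did not overlap in 6 groups, nor did miR-142a-5p and miR-146a-5p in 6. miR-146a-5p lay above miR-142a-3p without overlap in 11 groups, and miR-223-3p above miR-511-3p in all 12.

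**Figure D1:**
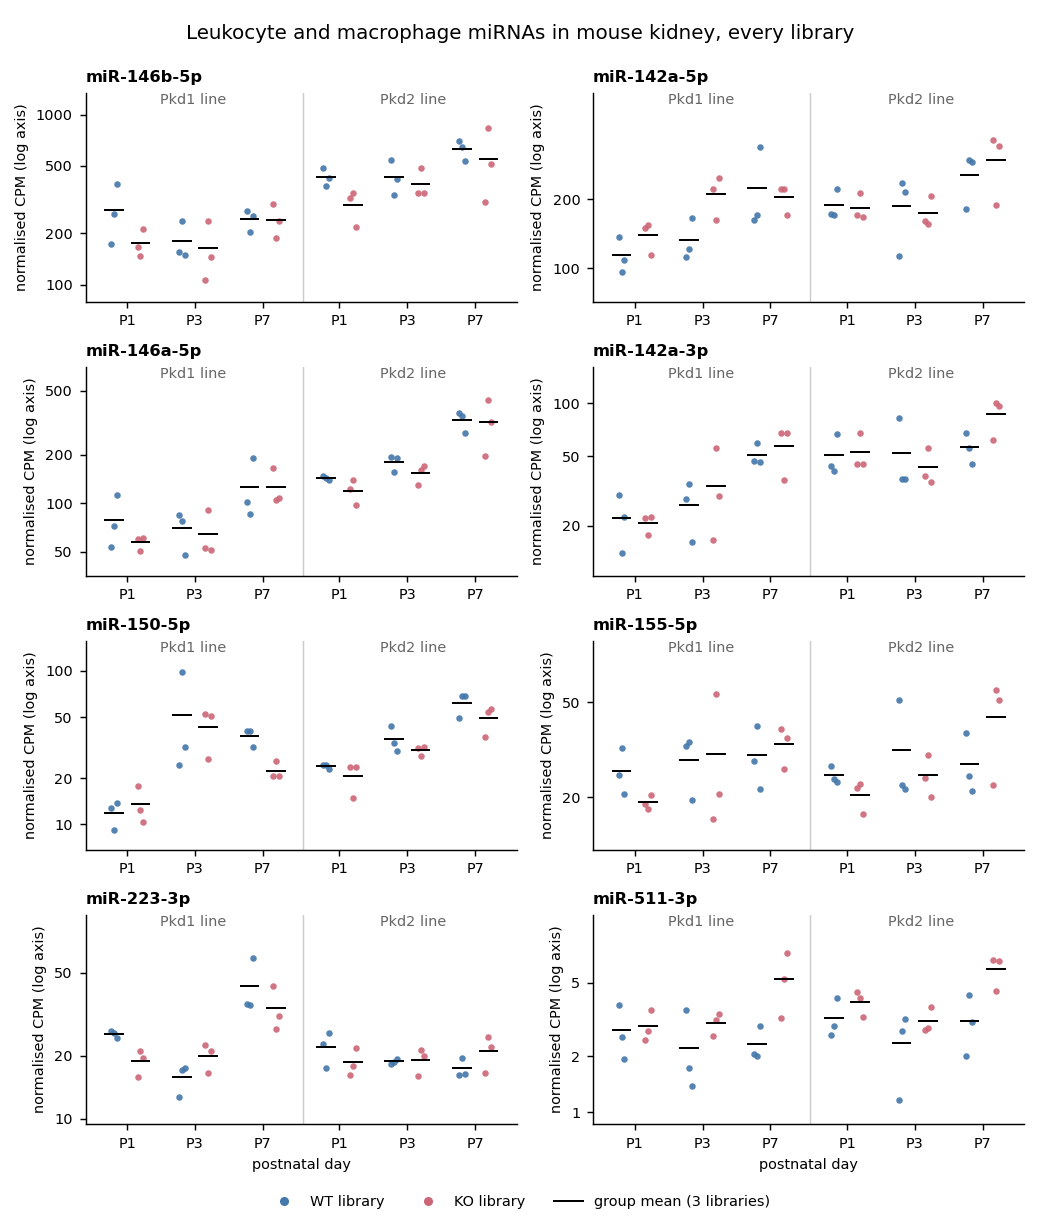
Normalised CPM (log axis) of each of the 8 miRNAs in every library, by line, postnatal day and genotype. Points are libraries and bars are means of 3 libraries. miR-150-5p is lowest in the P1 groups of the Pkd1 line, with a mean of 11.9 CPM in WT, and miR-511-3p is highest in the KO groups at P7, with means of 5.25 and 5.91 CPM.

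The first question was whether loss of Pkd1 or Pkd2 in the collecting duct was accompanied by a change of these miRNAs as cysts formed. At P1 and P3 no member was called, and at P7 the member with the largest difference was miR-511-3p, higher in KO in both models. In the edgeR quasi-likelihood test, with p-values adjusted by Benjamini-Hochberg over all miRNAs tested and a call at an adjusted p under 0.05, 0 of 8 members were called at P1, P3 or P7 in either line. Of all miRNAs tested, 0% were called at P1 and P3 in either line, 0.425% at P7 in the Pkd1 line and 12.6% at P7 in the Pkd2 line. At an unadjusted p under 0.05 the members counted 0, 1 and 1 at P1, P3 and P7 in the Pkd1 line, where the share of all miRNAs was 8.36%, 9.07% and 10.2%. For the Pkd2 line the members counted 0, 0 and 2, against 5.5%, 1.47% and 29% of all miRNAs. DESeq2 called 0 members in these comparisons except at P7 in the Pkd2 line, where it called 1, miR-511-3p, with an adjusted p of 0.0206. The shares of all miRNAs above are those of edgeR and give no background for this call.

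miR-511-3p, the macrophage miRNA from the Mrc1 intron, was the member that came nearest to a call in each line at P7. At P7 its levels in the Pkd1 line were 2.06, 2.01 and 2.91 CPM in the WT libraries and 3.24, 5.25 and 7.27 CPM in the KO libraries. Every KO library lay above every WT library, and the KO libraries were the more spread. The log2 fold change was 1.24 ± 0.38 (SE, n = 3 per group), a 2.36-fold higher level, with an edgeR adjusted p of 0.159. For the Pkd2 line at P7 the levels were 2.02, 4.27 and 3.07 CPM in WT and 6.64, 4.52 and 6.57 CPM in KO. Again the groups did not overlap, but the lowest KO library exceeded the highest WT library only narrowly. The log2 fold change was 1.00 ± 0.32 (SE), with an edgeR adjusted p of 0.05005, just above the threshold. It was called without the second KO library, which had the lowest level of the 3 (1.11, adjusted p = 0.0327). These values rest on few reads, 13 to 47 per WT library and 22 to 77 per KO library in the Pkd1 line, and 32 to 99 and 60 to 232 in the Pkd2 line.

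In the fit of all 36 libraries, the mean KO effect of the lines at P7 was tested once for each miRNA. miR-511-3p rose by a log2 fold change of 1.04 ± 0.26 (SE), or 2.06-fold, with an edgeR adjusted p of 0.0123, and it was higher in 6 of 6 KO libraries than in every WT library of its own line. It was the only member called, against 8% of the 775 miRNAs tested, 3.48% of which were higher in KO. This fit uses the same libraries as the tests within each line and is not separate evidence. The call was lost without the third KO library of the Pkd1 line, which had the highest level (log2 fold change 0.89, adjusted p = 0.0511), and with scaling by library totals alone (1.07, adjusted p = 0.330). Over the 12 fits that each left out a library, the log2 fold change ran from 0.89 to 1.18. As CPM of the raw library total, with no TMM factor, the P7 groups overlapped in both lines. The values were 0.832, 0.795 and 2.16 in WT and 1.51, 3.17 and 3.45 in KO of the Pkd1 line, and 1.40, 4.02 and 3.32 in WT and 8.81, 2.21 and 6.96 in KO of the Pkd2 line, so the separation of all 6 KO libraries holds on the TMM scale and not on this one.

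At earlier ages miR-511-3p had smaller differences. The log2 fold change of KO against WT in the Pkd1 line was 0.13 ± 0.36 at P1 and 0.47 ± 0.36 at P3, and in the Pkd2 line 0.33 ± 0.31 and 0.34 ± 0.32 (SE), none of which was called. The change of the KO effect from P1 to P7 was 1.11 ± 0.52 in the Pkd1 line and 0.66 ± 0.44 in the Pkd2 line, with edgeR adjusted p of 0.415 and 0.467, so a growth of the difference with age was not shown. The effect at P7 differed by -0.24 ± 0.52 between the lines (Pkd2 minus Pkd1, adjusted p = 0.883), an interval too wide to show that the effects were alike. The other arm of the hairpin, miR-511-5p, was near the floor, with a mean of 0.362 CPM and at least 10 reads in 10 of 36 libraries. From the same fits it gave log2 fold changes at P7 of 1.23 ± 0.64 in the Pkd1 line and 0.99 ± 0.60 in the Pkd2 line. Neither passed the test (adjusted p = 0.567 and 0.307).

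**Figure D2:**
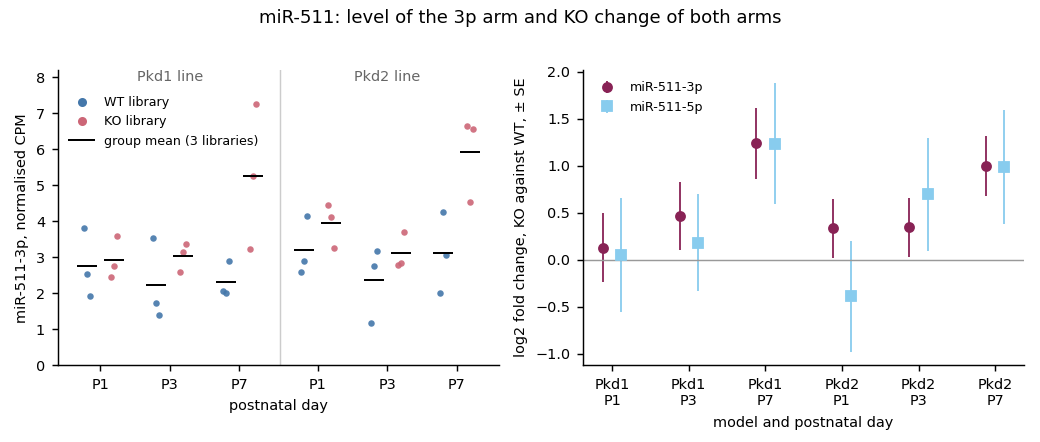
Left, normalised CPM of miR-511-3p in every library by line, postnatal day and genotype, with group means. Right, log2 fold change of KO against WT with its SE for both arms of the miR-511 hairpin in each line and at each age. All 3 KO libraries lie above all WT libraries at P7 in each line, and the estimates of both arms at P7 lie between 0.99 and 1.24. miR-511-5p is near the floor, with a mean of 0.362 CPM.

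miR-150-5p, the lymphocyte miRNA, went the other way in its estimates at P7 without passing the test. WT libraries of the Pkd1 line had 40.5, 40.9 and 32.0 CPM and the KO libraries 20.6, 26.0 and 20.6 CPM, and the groups did not overlap. The log2 fold change was -0.70 ± 0.43 (SE), with an edgeR adjusted p of 0.652. Those of the Pkd2 line had 49.2, 68.3 and 68.6 CPM in WT and 37.2, 54.3 and 56.3 CPM in KO, which overlapped, with a log2 fold change of -0.27 ± 0.23 (adjusted p = 0.494). The mean effect over the lines was -0.54 ± 0.24 (adjusted p = 0.169), and over its alternatives the adjusted p ran from 0.0482, with only the P7 libraries in the fit, to 0.608 with library totals alone. The other arm, miR-150-3p, near the floor with a mean of 0.358 CPM, had a mean effect of -0.84 ± 0.32 (adjusted p = 0.106).

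Both arms of miR-142a, which most blood cells make, had overlapping groups at P7. For the Pkd2 line miR-142a-3p had 68.0, 55.9 and 44.8 CPM in WT and 61.5, 101 and 97.3 CPM in KO, which gives a log2 fold change of 0.69 ± 0.32 (adjusted p = 0.162). miR-142a-5p had 182, 296 and 291 CPM in WT and 365, 189 and 340 CPM in KO, a log2 fold change of 0.29 ± 0.28. The KO library that was highest for the 3p arm was lowest for the 5p arm. In the Pkd1 line the log2 fold changes at P7 were 0.27 ± 0.40 for the 3p arm and -0.04 ± 0.27 for the 5p arm. At P3 in the Pkd1 line miR-142a-5p had 112, 121 and 166 CPM in WT and 222, 162 and 249 CPM in KO, the only member with an unadjusted p under 0.05 at that age (log2 fold change 0.69 ± 0.27, edgeR adjusted p = 0.464). In the same comparison all 6 erythroid miRNAs had estimates above 0 (median 0.99), and 0 were called. An unadjusted p under 0.05 was found for 5 of the 6, against 9.07% of all miRNAs tested. The 6 summed to 2279 to 2852 CPM in WT and 2888 to 6937 CPM in KO. Among them, miR-486a-5p and miR-486b-5p had nearly equal totals, 1764218 and 1763832 reads over all libraries. They may be largely the same reads entered under both names, which would raise these sums and counts. The part of the erythroid miRNAs in the value of miR-142a-5p was not tested.

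miR-223-3p, of myeloid cells, had opposite signs in the lines at P7. For Pkd1 mice the log2 fold change was -0.27 ± 0.25, from 35.6, 35.2 and 59.1 CPM in WT and 43.3, 26.8 and 31.0 CPM in KO. For Pkd2 mice it was 0.34 ± 0.19, from 16.3, 19.5 and 16.4 CPM in WT and 16.5, 24.5 and 21.9 CPM in KO. The difference between the lines was 0.63 ± 0.30 and did not pass the test (edgeR adjusted p = 0.403). miR-155-5p had 28.3, 39.8 and 21.6 CPM in WT and 38.5, 26.2 and 35.3 CPM in KO in the Pkd1 line, and 37.2, 24.5 and 21.2 CPM in WT and 22.5, 56.3 and 50.9 CPM in KO in the Pkd2 line. Its log2 fold changes were 0.24 ± 0.37 and 0.70 ± 0.35 (adjusted p = 0.914 and 0.202), and in the Pkd2 line it was called without the first KO library (1.01, adjusted p = 0.0493).

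The miR-146 pair, induced downstream of NF-kB, had estimates near 0 at P7. miR-146a-5p had 102, 85.9 and 191 CPM in WT and 167, 105 and 108 CPM in KO in the Pkd1 line (log2 fold change 0.09 ± 0.35), and 362, 350 and 275 CPM in WT and 196, 440 and 319 CPM in KO in the Pkd2 line (0.02 ± 0.23). miR-146b-5p had log2 fold changes of 0.07 ± 0.33 and -0.12 ± 0.29. At P1 in the Pkd2 line the 3 KO libraries lay below the 3 WT libraries for both, with 489, 382 and 423 CPM in WT and 323, 344 and 217 CPM in KO for miR-146b-5p (-0.51 ± 0.29, edgeR adjusted p = 0.972).

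Over the whole list, the median log2 fold change of KO against WT at P7 was 0.08 in the Pkd1 line, where that of all miRNAs tested was 0.01, and 0.31 in the Pkd2 line, where it was 0.02. The estimates were above 0 for 5 and 6 of the 8 members. Groups did not overlap for 2 members at P1 and 2 at P7 in the Pkd1 line, where 18.1% and 16.4% of all miRNAs tested did not overlap, and for 3 at P1 and 1 at P7 in the Pkd2 line, where 13.4% and 25.6% did not. At P3 none of the members was separated, against 12.3% of all miRNAs in the Pkd1 line and 4.42% in the Pkd2 line. The KO effect at P7 minus P1 was called for 0 members in each line (edgeR, and DESeq2 likewise, with 0 at an unadjusted p under 0.05), against 0.142% and 0.536% of all miRNAs called and 12% and 16.9% at an unadjusted p under 0.05. The difference between the lines at P7 was called for 0 members by both tools (1 at an unadjusted p under 0.05), against 0.387% called and 12% at an unadjusted p under 0.05.

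**Figure D3:**
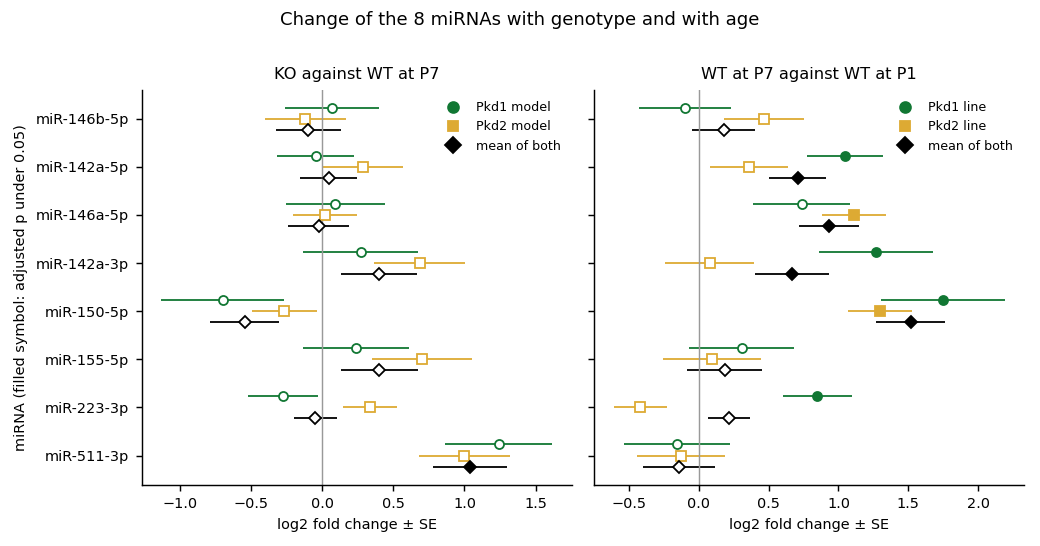
Log2 fold change with its SE for each of the 8 miRNAs, of KO against WT at P7 (left) and of WT at P7 against WT at P1 (right), within each line and as the mean of both. Filled symbols mark an edgeR adjusted p under 0.05. On the left the filled symbol is the mean effect of miR-511-3p (1.04), and on the right miR-150-5p is filled in both lines (1.75 and 1.30).

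Some miRNAs of other cell types also differed between WT and KO at P7, and not always alike in both lines. The 6 erythroid miRNAs (miR-451a, both arms of miR-144 and 3 miR-486 products) summed to 3616 to 4695 CPM in WT and 5384 to 8870 CPM in KO at P7 in the Pkd2 line, with all 6 estimates above 0 and 1 called higher. These sums and counts again include both miR-486a-5p and miR-486b-5p, which may be largely the same reads. In the Pkd1 line at P7 the erythroid miRNAs summed to 5454 to 7208 CPM in WT and 5116 to 5939 CPM in KO, with all 6 estimates below 0 and none called. For both arms of miR-126a, of endothelium, the sum was 15571 to 23724 CPM in WT and 10550 to 15597 CPM in KO at P7 in the Pkd2 line, and 7539 to 12453 CPM and 6237 to 8285 CPM in the Pkd1 line. Neither arm was called in either line, and 1 was called lower in the mean of both lines. The 6 miRNAs of kidney tubule and collecting duct summed to 91955 to 99626 CPM in WT and 64349 to 79022 CPM in KO at P7 in the Pkd1 line, and to 80132 to 88656 CPM and 43838 to 83495 CPM in the Pkd2 line. miR-30a-5p alone made up 77.6% of this sum over the 36 libraries. In the Pkd1 line 5 of the 6 estimates were below 0 and none was called. In the Pkd2 line 3 were called lower and 1 higher, with estimates from -1.13 to 0.87. Of all miRNAs tested, 0.425% were called at P7 in the Pkd1 line and 12.6% in the Pkd2 line. The 4 striated muscle miRNAs summed to 18.2 to 19.1 CPM in WT and 26.3 to 105 CPM in KO at P7 in the Pkd2 line. In the Pkd1 line they summed to 35.5 to 52.6 CPM in WT and 29.0 to 52.3 CPM in KO. None of the 3 tested was called in either line. Sums of the 2 smooth muscle miRNAs overlapped between WT and KO in both lines, and neither miRNA was called. All of these erythroid, endothelial and kidney tubule miRNAs were counted in all 36 libraries, whereas miR-208a-3p, a heart muscle miRNA of the striated list, was counted in 16 of 36. The part of these shifts in the members' values was not tested.

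Other products of the members' loci, namely the other arms and miR-142b from the opposite strand, and other miRNAs linked to immune cells were read for comparison. Of the 7 other products, 4 had enough counts to test, and 0 were called at P7 in either line by edgeR. At an unadjusted p under 0.05 there were 0 and 1, against 10.2% and 29% of all miRNAs tested. miR-223-5p, the largest of them with a mean of 3.70 CPM, had log2 fold changes at P7 of 1.82 ± 0.96 and 1.51 ± 0.79 (adjusted p = 0.567 and 0.224), whereas miR-223-3p had -0.27 and 0.34. Of 10 other miRNAs linked to immune cells, 9 were tested and 1 was called at P7 in each line, against 0.425% and 12.6% of all miRNAs. It was miR-21a-5p, which is induced in inflammation and also made by injured epithelium, and it rose by log2 fold changes of 1.45 ± 0.17 and 1.11 ± 0.25 (edgeR adjusted p = 0.00017 and 0.0147).

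The other question was how these miRNAs changed as the kidney of WT mice matured from P1 to P7, and the lymphocyte miRNA miR-150-5p rose in both lines. WT libraries of the Pkd1 line had 12.7, 9.21 and 13.9 CPM at P1 and 40.5, 40.9 and 32.0 CPM at P7, with no overlap. The log2 fold change was 1.75 ± 0.44 (SE), 3.36-fold, with an edgeR adjusted p of 0.0147. At P3 the libraries had 24.3, 98.2 and 31.7 CPM, the middle one above every P7 library. Those of the Pkd2 line had 24.5, 24.3 and 22.8 CPM at P1, 43.6, 33.7 and 30.1 CPM at P3 and 49.2, 68.3 and 68.6 CPM at P7. The ages followed each other without overlap there, and from P1 to P7 the log2 fold change was 1.30 ± 0.23, 2.46-fold (adjusted p = 0.000747). The mean over the lines was 1.52 ± 0.25 (adjusted p = 2.37e-05). With scaling by library totals alone the estimates stayed above 0 but the calls were lost, at 1.00 in the Pkd1 line, 0.61 in the Pkd2 line and 0.81 in the mean (edgeR adjusted p = 0.240, 0.235 and 0.0612). miR-150-3p, the other arm, which was near the floor, had a mean change of 0.82 ± 0.31 (adjusted p = 0.0339).

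Of the 8 members, 4 were called at P7 against P1 in the Pkd1 line and 2 in the Pkd2 line, each of them higher at P7. Of all miRNAs tested, 21.5% were called in the Pkd1 line and 28.3% in the Pkd2 line, and 10.3% and 11.4% were called higher. The median log2 fold change of the members was 0.79 and 0.23, and that of all miRNAs -0.03 and -0.06. Groups did not overlap for 4 and 3 members, against 33.3% and 50% of all miRNAs. In the mean of both lines 4 members were called higher, miR-150-5p, miR-146a-5p, miR-142a-5p and miR-142a-3p, against 43% called and 18.5% called higher. The mean change of miR-142a-3p, 0.67 ± 0.27 (adjusted p = 0.0456), lost its call in 9 of the 12 fits that left out a library (adjusted p from 0.0546 to 0.121). These counts depend on the scaling. Scaled by library totals alone, all miRNAs had a median of -0.68 in the Pkd1 line and -0.78 in the Pkd2 line, and none of the members called higher above was called. The share of all miRNAs called with that scaling is not given here. Calls of members were then 0 in the Pkd1 line, 1 in the Pkd2 line and 1 in the mean of both. They were miR-223-3p in the Pkd2 line (log2 fold change -1.13, edgeR adjusted p = 0.0358) and miR-155-5p in the mean (-0.57, adjusted p = 0.00988), both lower at P7.

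miR-146a-5p rose in the Pkd2 line, from 149, 143 and 140 CPM at P1 to 362, 350 and 275 CPM at P7. The groups did not overlap, and the log2 fold change was 1.11 ± 0.23 (edgeR adjusted p = 0.00219). It was 0.37 and not called with scaling by library totals alone (adjusted p = 0.348), and 0.58 with totals free of miR-10a-5p and miR-10b-5p (adjusted p = 0.0344). In the Pkd1 line it had 53.3, 72.6 and 112 CPM at P1 and 102, 85.9 and 191 CPM at P7, which overlapped, with a log2 fold change of 0.74 ± 0.35 (adjusted p = 0.140), and it was called without the third WT library at P1 (1.11, adjusted p = 0.0436). miR-146b-5p, which has the same seed, had log2 fold changes of -0.10 ± 0.33 in the Pkd1 line and 0.46 ± 0.29 in the Pkd2 line, neither of them called.

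The ratio of miR-146a-5p to miR-146b-5p reads within a library is free of scaling and was higher at P7 than at P1. It was 0.291 ± 0.015 at P1 and 0.516 ± 0.202 at P7 in WT of the Pkd1 line (SD, n = 3). In WT of the Pkd2 line it was 0.337 ± 0.035 at P1 and 0.525 ± 0.015 at P7. The ages did not overlap in either line, with 0.279 to 0.307 against 0.379 to 0.748 and 0.305 to 0.375 against 0.516 to 0.542. The KO libraries gave 0.332 ± 0.040 at P1 and 0.523 ± 0.060 at P7 in the Pkd1 line, and 0.410 ± 0.036 and 0.596 ± 0.064 in the Pkd2 line. miR-146b-5p was thus the more abundant in every library, and over all 36 the ratio ran from 0.279 to 0.748. The ratio is given as a description, with no test. Its log2 had a within-group correlation of -0.47 with the share of reads taken by miR-10a-5p and miR-10b-5p over the 36 libraries.

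**Figure D4:**
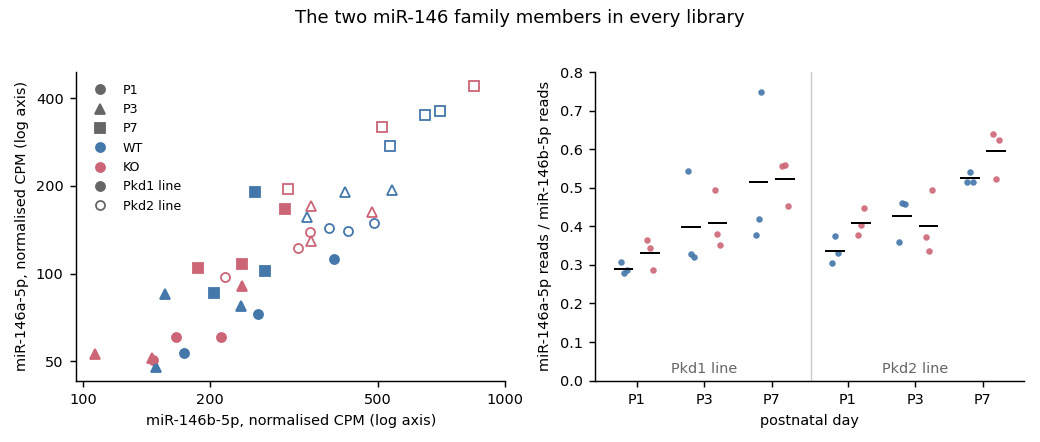
Left, normalised CPM of miR-146a-5p against miR-146b-5p (log axes) in 36 libraries. Right, the ratio of their reads in every library by line, postnatal day and genotype, with blue points for WT, red points for KO and bars for group means. The ratio is higher at P7 than at P1 in WT of both lines, with group means of 0.516 and 0.525 at P7 against 0.291 and 0.337 at P1.

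The 2 arms of miR-142a were called higher at P7 in the Pkd1 line. miR-142a-5p had 137, 96.5 and 108 CPM at P1 and 163, 171 and 337 CPM at P7, a log2 fold change of 1.04 ± 0.27 (edgeR adjusted p = 0.0164). miR-142a-3p had 30.1, 13.9 and 22.6 CPM at P1 and 47.0, 59.0 and 46.0 CPM at P7, a log2 fold change of 1.27 ± 0.41 (adjusted p = 0.0387). The ages did not overlap for either arm. The call of miR-142a-5p was lost without the third WT library at P7, which had the highest level (0.63, adjusted p = 0.0864), and without the second at P1 (0.93, adjusted p = 0.0527). That of miR-142a-3p was lost without any of 5 of the 6 libraries, with adjusted p from 0.0649 to 0.117. In the Pkd2 line neither arm was called, with log2 fold changes of 0.36 ± 0.28 and 0.08 ± 0.32.

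miR-223-3p changed in different ways in WT of the lines. In the Pkd1 line it had 26.2, 25.7 and 24.3 CPM at P1, 12.7, 17.1 and 17.5 CPM at P3 and 35.6, 35.2 and 59.1 CPM at P7. It was lowest at P3, and between P1 and P7 it rose by a log2 fold change of 0.85 ± 0.25 (edgeR adjusted p = 0.0275). Without the third WT library at P7 the value was 0.56 (adjusted p = 0.129), and the call was also lost without the first (0.86, adjusted p = 0.0581) or the second (0.84, adjusted p = 0.0572) WT library at P1. In the Pkd2 line it had 22.8, 17.6 and 25.7 CPM at P1, 18.3, 18.7 and 19.4 CPM at P3 and 16.3, 19.5 and 16.4 CPM at P7, a log2 fold change of -0.42 ± 0.19 that was not called (adjusted p = 0.116). The difference between the lines (Pkd2 minus Pkd1) was -1.11 ± 0.30, rank 3 of 775 miRNAs by p, with an adjusted p of 0.226 in edgeR and 0.0269 in DESeq2. That comparison was added after the values were seen. It was called for 0 members in edgeR (1 at an unadjusted p under 0.05), against 0.258% of all miRNAs called and 7.1% at an unadjusted p under 0.05. DESeq2 called 1 member, miR-223-3p, and its own share of all miRNAs is not given here.

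miR-155-5p and miR-511-3p were not called with age. miR-155-5p had 24.8, 32.1 and 20.5 CPM at P1 and 28.3, 39.8 and 21.6 CPM at P7 in WT of the Pkd1 line (log2 fold change 0.31 ± 0.37), and 0.09 ± 0.35 in the Pkd2 line. miR-511-3p had log2 fold changes of -0.16 ± 0.38 and -0.13 ± 0.32. Its WT groups all had means between 2.22 and 3.22 CPM, at every age in both lines.

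Among the other immune-linked miRNAs, 2 were called higher from P1 to P7 in the Pkd1 line and 0 lower, and 3 were called higher and 1 lower in the Pkd2 line, of 9 tested. Of all miRNAs tested, 21.5% were called in the Pkd1 line and 28.3% in the Pkd2 line, with 10.3% and 11.4% called higher. miR-181a-5p, which is prominent in developing lymphocytes but abundant in many tissues, rose by 0.99 ± 0.20 and 1.31 ± 0.17, and miR-21a-5p by 0.79 ± 0.16 and 0.74 ± 0.25 (log2 fold changes). miR-181b-5p rose by 0.46 ± 0.16 in the Pkd2 line, and miR-212-3p fell by 0.83 there. Their median was 0.10 and -0.03. The kidney tubule miRNAs had all 6 estimates above 0 in both lines, with 3 and 5 called higher, and both endothelial and both smooth muscle miRNAs had estimates above 0 in both lines, with miR-126a-3p called higher in each line and miR-143-3p in the Pkd1 line. Of the 6 erythroid miRNAs, 4 had estimates above 0 in each line, and 1, miR-144-3p, was called higher in the Pkd1 line. Their sum, mostly reads of miR-451a and of both miR-486a-5p and miR-486b-5p, was 6164 to 9036 CPM at P1 and 5454 to 7208 CPM at P7 in WT of the Pkd1 line. The striated muscle miRNAs summed to 1525 CPM in the first WT library at P1 of that line and to 17.7 to 53.2 CPM in its other WT libraries of P1 and P7. Without that library miR-150-5p, miR-142a-5p and miR-142a-3p were still called higher with age in the Pkd1 line, and miR-223-3p was not. The liver miRNA miR-122-5p had 9.04 to 274 CPM at P1 and 0.851 to 2.96 CPM at P7 in WT of the Pkd2 line. In the Pkd1 line it had 5.33 to 42.2 CPM and 0.804 to 9.61 CPM. It was called lower at P7 in the Pkd2 line (log2 fold change -5.72) and in the mean of both lines (-4.20), but not in the Pkd1 line (-2.68). The part of the liver miRNA and of the other shifts in the members' values was not tested.

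The lines differed in level, most of all for the miR-146 pair. The mean over 18 libraries was 87.4 CPM in the Pkd1 line and 208 CPM in the Pkd2 line for miR-146a-5p, and 213 and 455 CPM for miR-146b-5p. For miR-142a-3p the means were 35.2 and 56.9 CPM, whereas miR-155-5p had 27.8 and 28.7 CPM and miR-223-3p 26.2 and 19.5 CPM. In WT at P1, miR-146a-5p did not overlap between the lines, at 53.3 to 112 CPM in the Pkd1 line and 140 to 149 CPM in the Pkd2 line. The lines may also have been sequenced apart, which the labels do not tell, so line and handling cannot be told apart and no test was made.

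Within groups, several members followed the share of reads taken by miR-10a-5p and miR-10b-5p. After subtracting group means of log2 CPM, the correlation with that share over 36 libraries was 0.95 for miR-155-5p, 0.77 for miR-142a-3p, 0.74 for miR-146b-5p and 0.47 for miR-146a-5p. It was -0.80 for miR-142a-5p, -0.35 for miR-511-3p, -0.21 for miR-223-3p and -0.05 for miR-150-5p. These are descriptions over libraries of 12 groups that share the scaling. Across libraries the reads of miR-142a-5p were 1.37 to 13.5 times those of miR-142a-3p (median 4.17), and the log2 of this ratio, which no scaling touches, had a within-group correlation of -0.92 with the miR-10 share. The arms of a single hairpin therefore gave opposite values in libraries of the same group. At P3 in the Pkd2 line, for instance, the 3 WT libraries had 1.37 to 6.34 times as many 5p as 3p reads.

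The miR-10 share was 79.9%, 81.0% and 57.9% in the WT libraries and 79.0%, 67.9% and 77.5% in the KO libraries at P7 in the Pkd1 line. In the Pkd2 line it was 66.4%, 47.9% and 42.8% in WT and 41.1%, 74.1% and 57.4% in KO, so the range of each KO group overlapped that of its WT group. With the share as a covariate, an alternative chosen after seeing the data, 3 members were called at P7 in the Pkd2 line. These were miR-511-3p (log2 fold change 1.15, edgeR adjusted p = 0.00401), miR-155-5p (0.48, adjusted p = 0.0264) and miR-142a-3p (0.54, adjusted p = 0.0405). In the same fit 168 miRNAs were called among all tested, against 94 without the covariate.

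**Figure D5:**
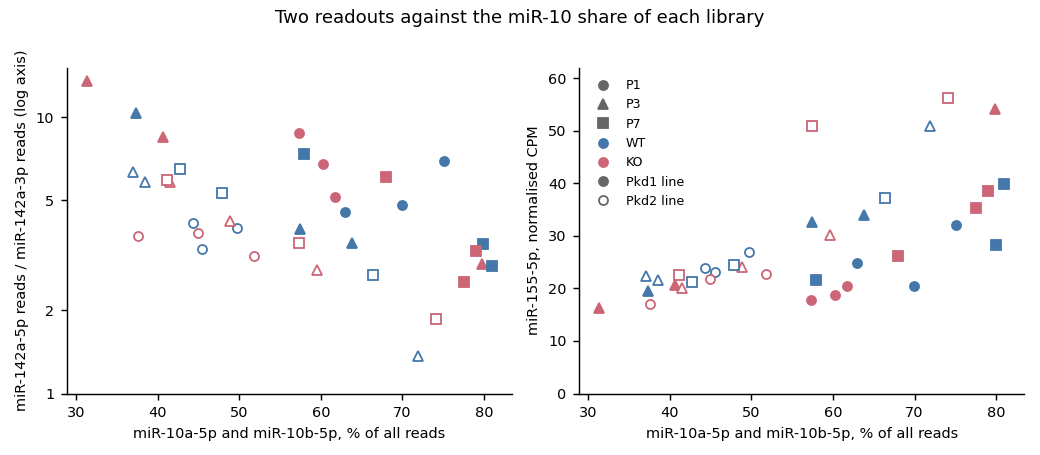
Ratio of miR-142a-5p to miR-142a-3p reads (left, log axis) and normalised CPM of miR-155-5p (right) against the percentage of all reads taken by miR-10a-5p and miR-10b-5p, with 1 point per library. The ratio runs from 13.5 in the library with the lowest share, 31.4%, to 1.37 in a library with 71.9%.

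The miRNAs whose levels were most like those of a member over the 36 libraries were sought among 643 miRNAs outside the list, with Pearson's r of log2 CPM as a description. miR-155-5p was most like miR-145a-5p (r = 0.94), a smooth muscle miRNA, and then miR-186-5p (0.92) and miR-221-5p (0.88). miR-142a-5p was most like miR-144-3p (0.85), an erythroid miRNA, and miR-142a-3p like miR-3068-5p (0.86). miR-150-5p was most like miR-497a-5p (0.87), miR-146a-5p like miR-200a-3p (0.86), miR-146b-5p like miR-3068-5p (0.83) and miR-223-3p like miR-378d (0.75). After subtracting group means, r was 0.95 for miR-155-5p with miR-145a-5p and 0.84 for miR-142a-5p with miR-144-3p, but 0.30 for miR-150-5p with miR-497a-5p, 0.14 for miR-146a-5p with miR-200a-3p and -0.20 for miR-223-3p with miR-378d. The next most like miR-150-5p were miR-802-5p (0.85, and 0.60 within groups) and miR-30b-5p (0.83, and 0.46 within groups). For miR-223-3p the next were miR-3068-3p (0.71, and 0.48 within groups) and miR-3470b (0.66, and 0.23 within groups). miR-511-3p had the lowest best value, 0.62 with miR-182-3p (0.35 within groups). With miR-3068-5p, r within groups was 0.76 for miR-142a-3p and 0.67 for miR-146b-5p. Between members, r was 0.91 for miR-146a-5p with miR-146b-5p and 0.42 for the 2 arms of miR-142a, and the latter was -0.42 within groups. miR-142a-3p and miR-155-5p had an r of 0.76 within groups, and miR-511-3p with miR-223-3p -0.09. All of these are over libraries that share their depth and scaling.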

How the data were processed

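Total RNA from whole kidneys was sequenced as small RNA libraries, 3 in each of 12 groups. The authors removed the 3′ adaptor, kept reads over 17 bases and counted them with miRDeep2 against miRBase 21 and mm10, and they deposited raw read counts per mature miRNA and hairpin. The submitters' processing notes also name CASAVA 1.8.2 and HTSeq. For a miRNA listed under several hairpins, the row with most reads was taken. Testing used edgeR 4.0.16 in R 4.3.3 (quasi-likelihood, TMM, at least 10 counts in at least 3 libraries, Benjamini-Hochberg over 706 miRNAs for the Pkd1 line, 746 for the Pkd2 line and 775 for both), with 1 term per group and all libraries of a line, or of both, in the fit. The SE is that of the log2 fold change. The edgeR test of KO against WT at P7 in the Pkd1 line was run on counts simulated with its own fitted spread. Apart from set changes, each miRNA had the same mean share in every library, so the unequal miR-10 shares were not simulated. Reads are not independent molecules, so floors cover counting error only. DESeq2 1.42.0 was an alternative.

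The members, lists and tests were chosen with earlier results of these data known. The named miRNAs are the 8 members in every comparison, up to 4 of each list (those called, then the most abundant), other arms beside a member's result, and up to 3 most alike. Replicate numbers were not taken as pairs: same-numbered WT and KO libraries had correlations of their deviations from -0.48 to 0.51, and 7 of 18 exceeded 0.1. All 7 were at P1 or P3, and every correlation at P7 was below 0. Whether the numbers pair some libraries at P1 and P3 is not settled.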

Additional observations from a re-analysis of the deposited data

How the results depend on the processing

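Of the alternatives tried, those of members not called reversed most. At P7 in the Pkd1 model the log2 fold change of KO against WT became -0.18 for miR-146a-5p and -0.053 for miR-146b-5p with library totals alone, 0.048 for miR-142a-5p and -0.0015 for miR-146b-5p with the covariate of miR-10 share, and 0.021 for miR-142a-5p with the replicate block. At P7 in the Pkd2 model that of miR-146a-5p became -0.020 with RLE size factors and with DESeq2, -0.11 with library totals alone, -0.10 with the covariate, -0.0076 with rows of several hairpins summed and -0.044 with the replicate block. With library totals alone, WT at P7 against P1 became -0.45 for miR-155-5p in the Pkd1 line, and -0.31 for miR-142a-5p, -0.70 for miR-142a-3p, -0.69 for miR-155-5p and -0.28 for miR-146b-5p in the Pkd2 line, with -0.10 for miR-142a-3p in the mean of both lines. With library totals free of miR-10a-5p and miR-10b-5p it became -0.14 for miR-155-5p in the Pkd1 line, and -0.19, -0.46, -0.44 and -0.068 for miR-142a-5p, miR-142a-3p, miR-155-5p and miR-146b-5p in the Pkd2 line. With the covariate it became -0.11 for miR-142a-3p and -0.16 for miR-155-5p in the Pkd2 line.

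The count of members called at P7 in the Pkd2 model went from 0 to 1 with totals free of miR-10 and with DESeq2, and to 3 with the covariate. In WT of the Pkd1 line it went from 4 to 0 with library totals alone, 1 with totals free of miR-10, and 2 with no filter or with only the groups compared. In WT of the Pkd2 line it went from 2, both higher, to 1, miR-223-3p, lower, with library totals alone, and to 3 with totals free of miR-10 (miR-223-3p added, lower) or with the covariate (miR-142a-5p added, higher). For the mean KO effect it went from 1 to 0 with library totals alone, and to 2 with only the groups compared. For the mean change of WT it went from 4, all higher, to 1 with library totals alone, which was none of the 4 but miR-155-5p, lower, and to 2 with totals free of miR-10, miR-150-5p higher and miR-511-3p lower. The difference between the WT lines went from 0 to 1 with DESeq2. The counts of all miRNAs called moved too, for example from 152 to 53 in WT of the Pkd1 line with only the groups compared, and from 62 to 9 for the mean KO effect with library totals alone. Over the alternatives they ran from 4 to 168 at P7 in the Pkd2 model and from 137 to 327 in WT of the Pkd2 line. For the mean change of WT they ran from 279 to 408. A change in the members' counts can therefore not be told from a change in the calling of all miRNAs. The causes were not tested.

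Leaving out a library at a time gave 0 to 1 members called at P7 in the Pkd2 model, 1 to 4 in WT of the Pkd1 line and 0 to 1 for the mean KO effect. Log2 fold changes of members not called ranged, at P7 in the Pkd1 model, from -0.21 to 0.29 for miR-142a-5p, -0.032 to 0.48 for miR-155-5p, -0.19 to 0.43 for miR-146a-5p and -0.14 to 0.27 for miR-146b-5p. In the Pkd2 model they ranged from -0.34 to 0.27 for miR-146a-5p and -0.60 to 0.17 for miR-146b-5p. For WT they ranged from -0.35 to 0.28 for miR-146b-5p and -0.37 to 0.16 for miR-511-3p in the Pkd1 line, and from -0.081 to 0.33 for miR-142a-3p, -0.19 to 0.29 for miR-155-5p and -0.34 to 0.11 for miR-511-3p in the Pkd2 line.

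The replicate numbers were not taken as pairs: same-numbered WT and KO libraries deviated together in 7 of 18 cases, and 7 of 18 libraries correlated best with their own number. With the replicate block the mean KO effect had 0 members called, down from 1 (miR-511-3p 1.05, adjusted p = 0.0541), and the count of all miRNAs called went from 62 to 27. Depth limits miR-511-3p most, with 13 to 232 reads per library.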
